A study of Mus musculus with 9 samples.

Results

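The 7 genes described here are leukemia inhibitory factor (Lif), both chains of its receptor (Lifr and Il6st), the transcription factor that the receptor activates (Stat3), the feedback inhibitor that this factor induces (Socs3), and 2 genes reported as uterine targets of LIF or progesterone (Coch and Irg1). They are taken by name from 35930 annotated genes with a value. RNA of whole mouse uterus was sequenced in 3 groups of 3 libraries. In the arrested group the horns of the uterus had received pooled culture medium of 18 human embryos that were arresting, in the competent group pooled medium of 9 competent human embryos, and in the control group embryo culture medium that had held no embryo. All 9 libraries came from immature C57BL/6 females that had first been given 1 mg progesterone once and 10 mg/kg of β-estradiol a day over 3 days, and the injected volume was 50 µl in every group. The labels give an age of 25 days, while the study's design text also gives 21 days. Medium was pooled over embryos, and the labels do not say whether each library is an animal of its own. The p-values below rest on the spread among these samples alone, and that spread may be technical.

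LIF signals through a receptor made of LIFR and gp130, the product of Il6st, which is shared by the whole interleukin-6 family. The receptor switches on JAK kinases, these phosphorylate STAT3, and STAT3 moves to the nucleus and induces its targets, among them Socs3, whose product shuts the receptor off again. In the mouse, uterine glands secrete LIF under estrogen around implantation, it acts on the luminal epithelium, and embryos do not implant in mothers that lack it.

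Values are FPKM, fragments scaled to transcript length and to the depth of the library, summed over the annotated transcripts of a gene. They are levels per length and can be set side by side between genes. Transcripts that the authors' software assembled at the same gene were added in a second reading wherever that is stated. The number of reads is unknown. The markers of uterine tissue were present in every library: the 9 epithelial markers summed to 2138 to 3184 FPKM, the 7 stromal markers to 1340 to 2862 and the 7 smooth muscle markers to 879 to 2770, each over the 9 libraries. Arrested library 3 stood apart from the others, at 90.7 on the leading component of all genes, against -25.1 to 4.83 for the other 8 libraries. Arrested library 2 held more adipocyte RNA, with 598 FPKM of Fabp4 against at most 82.4 in the other libraries.

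Across the pathway, the core of LIF signalling (receptor, STAT3 and SOCS3) had overlapping levels in the 3 groups. Coch stood apart: it averaged 15.9 ± 12.2 FPKM after arrested embryo medium, 0.589 ± 0.441 after competent embryo medium and 2.60 ± 1.26 after control medium (SD, n = 3 each), with no overlap between any groups. Of genes tested, 0.255% separated the groups in that order. From annotated transcripts Coch passed the test in no comparison (limma adjusted p = 0.098 for arrested versus competent). With assembled transcripts added it passed for arrested versus competent only (limma adjusted p = 0.036). Lif itself was low everywhere. With assembled transcripts added, each arrested library held less Lif than every competent and control library, but the difference did not pass the test. Irg1 was near 0 in 8 libraries and clearly above it in arrested library 3. Whole tissue was measured, so fewer cells of a type and less RNA per cell cannot be told apart in any of these values.

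**Figure D1:**
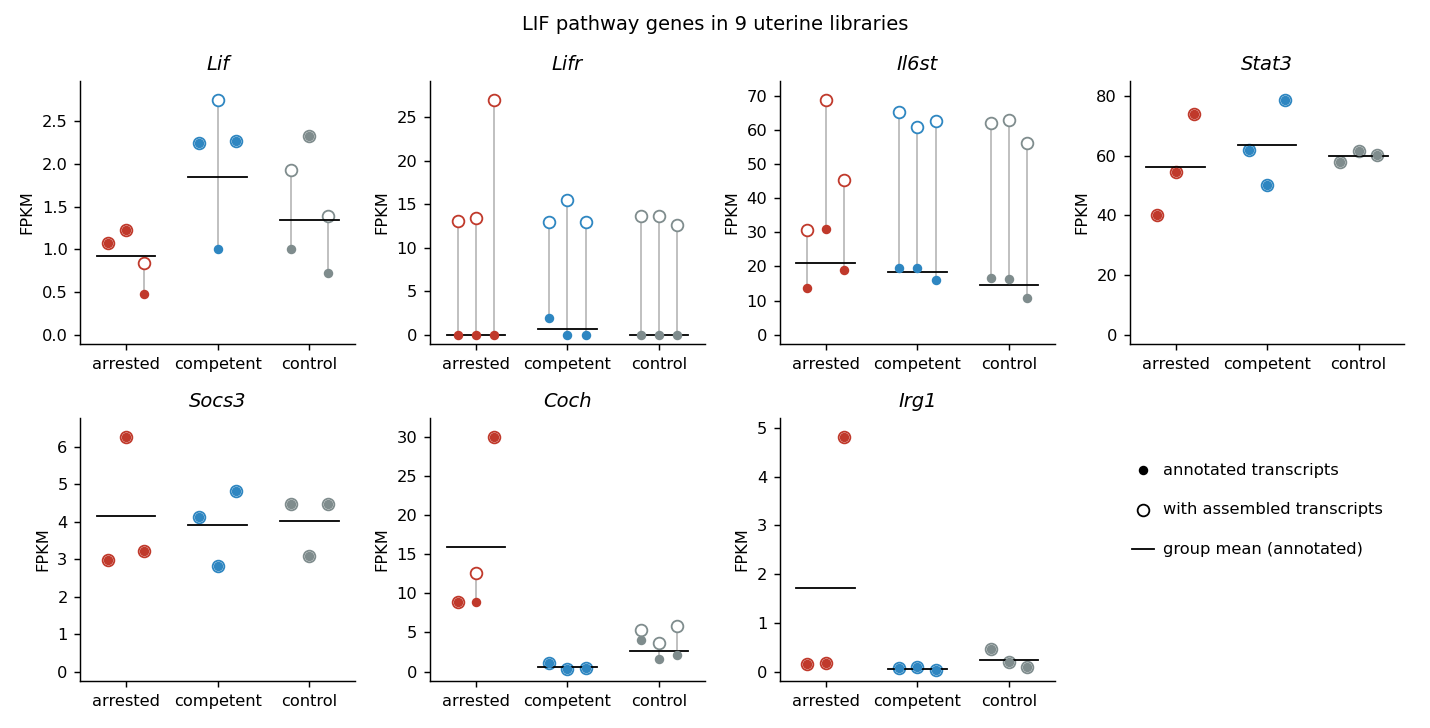
FPKM (vertical axes) of the 7 genes in the 9 libraries, with the arrested, competent and control groups along each horizontal axis. Filled points sum annotated transcripts, open points add assembled transcripts, and black lines are group means of the filled points. Coch separates the 3 groups, Irg1 is high in arrested library 3 alone, and Lifr is read almost only from assembled transcripts.

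Lif (ENSMUSG00000034394, chr11:4157560-4172517, plus strand, build NCBIM37, that is mm9) encodes the secreted ligand. From annotated transcripts it had 1.077, 1.23 and 0.473 FPKM in the arrested libraries, 2.25, 1.00 and 2.27 in the competent libraries, and 1.01, 2.32 and 0.720 in the control libraries. The groups overlapped, and each held a library near 1 FPKM. The fitted difference was -0.55 ± 0.37 for arrested minus competent on the log2(FPKM + 1) scale (limma adjusted p = 0.66). This scale, used for all differences below, understates changes of low genes.

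In 4 libraries the software had assembled further Lif transcripts that share splice junctions with the annotated ones. They differ between libraries, with 2 exons in arrested library 3, 3 in control library 1, and 4 in competent library 2 and control library 3. Each was counted in full, whatever part of the gene it covers. Adding them gave 1.077, 1.23 and 0.836 FPKM in the arrested libraries, 2.25, 2.75 and 2.27 in the competent libraries, and 1.92, 2.32 and 1.39 in the control libraries. Every arrested library was then below every library of both other groups, an order that 436 of 14254 genes showed in that reading (3.06%). The difference was -0.74 ± 0.21 for arrested minus competent (limma adjusted p = 0.27) and -0.48 ± 0.21 for arrested minus control (limma adjusted p = 0.87), so neither passed. Competent minus control was 0.26 ± 0.21 (limma adjusted p = 0.92). The coverage of single Lif transcripts with a value was 0.252 to 3.34 reads deep in the authors' coverage column. By single transcripts only Irg1 reached lower, and Coch fell to 0.495.

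The longer annotated form Lif-001, which starts at the upstream first exon, was above 0 in 4 libraries: at 0.184 FPKM in arrested library 2, at 0.565 and 1.10 in competent libraries 1 and 3, and at 0.283 in control library 2. The shorter Lif-201 carried a value in all 9 libraries. The third annotated form, a transcript without a coding region, was listed at 0 throughout.

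Lifr (ENSMUSG00000054263, chr15:7079559-7147489, plus strand) encodes the chain of the receptor that binds LIF. Annotated transcripts put it at 0 in 8 libraries and at 1.94 FPKM in competent library 1, from Lifr-203, the longest annotated form. These zeros do not mean that the gene was silent. In all 9 libraries the software had assembled a transcript of 20 exons that shares all 19 introns of Lifr-201, and listed the annotated forms at 0 beside it. With assembled transcripts, Lifr had 13.02, 13.4 and 27.0 FPKM in the arrested libraries, 12.98, 15.5 and 12.99 in the competent libraries, and 13.6, 13.7 and 12.6 in the control libraries.

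Apart from arrested library 3, the 8 libraries therefore lay between 12.6 and 15.5 FPKM. The higher total of arrested library 3 came with a second assembled transcript of 4 exons at the 3′ end of the gene, at 13.1 FPKM. The same piece had 2.81 FPKM in arrested library 2, 7.85 in competent library 2 and 2.78 in control library 3, and was not assembled in the other libraries. The full-length transcripts alone had 13.02, 10.6 and 13.9 FPKM in the arrested libraries, 11.04, 7.61 and 12.99 in the competent libraries, and 13.6, 13.7 and 9.84 in the control libraries. The summed level differed by 0.27 ± 0.26 for arrested minus competent and by 0.32 ± 0.26 for arrested minus control (limma adjusted p = 0.72 and 0.88).

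Il6st (ENSMUSG00000021756, chr13:113265216-113297068, plus strand) encodes gp130, the signalling chain. Its single annotated transcript had 13.6, 31.0 and 18.9 FPKM in the arrested libraries, 19.44, 19.45 and 15.995 in the competent libraries, and 16.6, 16.5 and 10.6 in the control libraries. The arrested libraries held both the highest value and one of the lowest. A longer Il6st transcript was assembled in all 9 libraries. It starts 10905 to 10926 bases upstream of the annotated start and also ends farther downstream, at 113299526 to 113300265 against an annotated end of 113297068. It shares all 14 annotated introns and adds, in all 9 libraries, an intron of 8336 bases at chr13:113254459-113262794 and one of 2357 bases at chr13:113262882-113265238. Both carry the GT and AG that mark the ends of most introns, shown in capitals at the ends of these 20-base stretches of NCBIM37.

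First added intron, 5′ end: GTgagaagaacagggccccg
First added intron, 3′ end: aggctcttctgtcttcacAG
Second added intron, 5′ end: GTaagtaatttgtctcctct
Second added intron, 3′ end: ttacattatgtctgttacAG

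The assembled starts lie 12 to 33 bases downstream of the start site that RefSeq gives for Il6st (RefSeq table of GRCm38.p6, whose sequence was matched at 1 place on the chromosome in NCBIM37). The 250 bases before that site, chr13:113254028-113254277 on the plus strand, are shown because most Il6st signal in these uteri came from the transcript that starts there. Capitals mark CCAAT and the GC box GGGCGG, searched on both strands. The window holds CCAAT at 65 and 33 bases before the start and a GC box, read on the opposite strand, at 93 bases.

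Il6st upstream window: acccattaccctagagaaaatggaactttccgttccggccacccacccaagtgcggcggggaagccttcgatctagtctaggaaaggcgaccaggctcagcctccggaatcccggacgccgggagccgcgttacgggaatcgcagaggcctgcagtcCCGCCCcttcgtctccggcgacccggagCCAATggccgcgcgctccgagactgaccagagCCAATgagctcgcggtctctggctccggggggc

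Such letters are common: 33.8% of 32851 RefSeq upstream windows of this length hold CCAAT and 32.7% hold the GC box, and a match is a description, not a binding site.

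The long transcript had 17.2, 37.8 and 26.4 FPKM in the arrested libraries, 45.8, 41.4 and 46.5 in the competent libraries, and 45.4, 46.3 and 45.4 in the control libraries. The 26.4 FPKM of arrested library 3 sums 12.6 FPKM of a transcript with all 14 annotated introns and 13.8 of another with 12. All arrested libraries were below all others, while competent and control libraries overlapped. How many transcripts of other genes stand in this order was not counted. Of whole genes with assembled transcripts added, 3.06% had all arrested libraries below all others, and Il6st as a whole gene was not among them. Long transcripts made up 55.9, 54.9 and 58.3% of the gene's FPKM in the arrested libraries. In the competent libraries they made up 70.2, 68.0 and 74.4%, and in the control libraries 73.2, 73.8 and 81.0%. This split was noticed after the values were seen and is a description, with no test. Software that divides reads between overlapping transcripts made both values, so a change of one moves the other. For the whole gene, long and annotated transcripts summed to 30.8, 68.8 and 45.3 FPKM in the arrested libraries, 65.2, 60.9 and 62.5 in the competent libraries, and 62.0, 62.7 and 56.0 in the control libraries.

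The summed level overlapped between groups, with arrested library 2 the highest of all and arrested libraries 1 and 3 the lowest. The difference was -0.45 ± 0.25 for arrested minus competent (limma adjusted p = 0.52), against 0.13 ± 0.30 from the annotated transcript (limma adjusted p = 0.92), so its sign depended on which transcripts were counted. Arrested minus control was -0.39 ± 0.25 in the summed reading and 0.46 ± 0.30 from the annotated transcript (limma adjusted p = 0.87 and 0.90). Without arrested library 2, which held the most adipocyte RNA, the summed arrested minus competent difference was -0.73 (limma adjusted p = 0.15). The part of adipose tissue in the Il6st level was not tested.

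**Figure D2:**
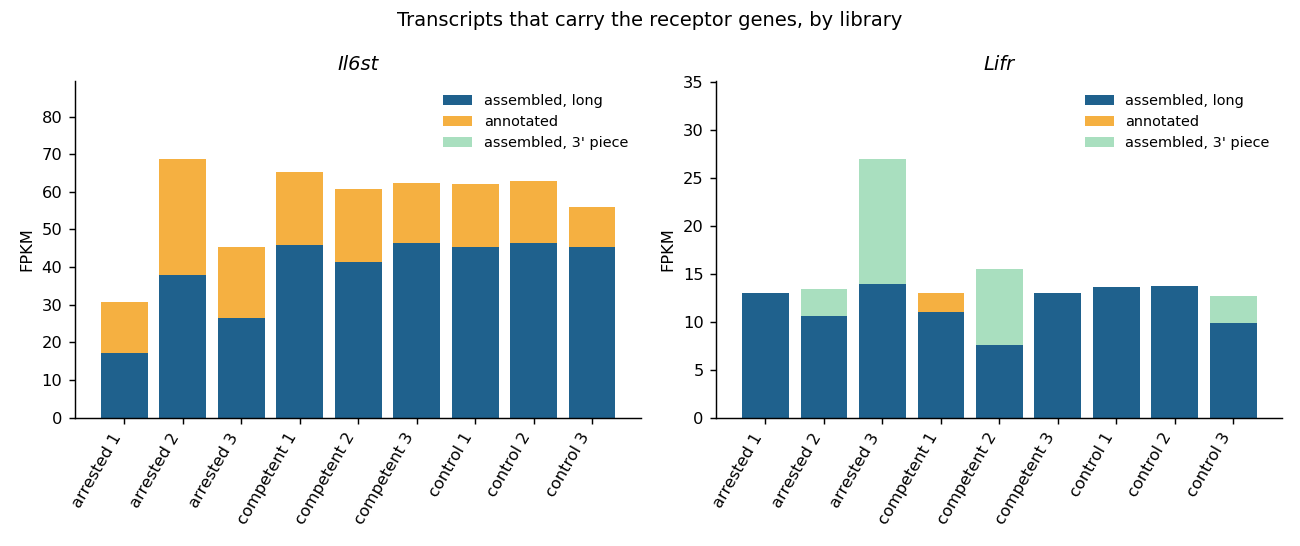
FPKM (vertical axes) of Il6st, left, and Lifr, right, in each of the 9 libraries, split into the long assembled transcripts, the annotated transcripts and a short assembled piece at the 3′ end. The long Il6st transcripts sum to between 17.2 and 37.8 FPKM in the arrested libraries and between 41.4 and 46.5 in the other 6. The tall Lifr bar of arrested library 3 rests on the short piece.

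Stat3 (ENSMUSG00000004040, chr11:100746412-100800854, minus strand) encodes the transcription factor of the pathway and had the highest annotated level of the 7 genes. It had 40.1, 54.5 and 74.0 FPKM in the arrested libraries, 62.1, 50.2 and 78.7 in the competent libraries, and 57.8, 61.7 and 60.1 in the control libraries. The controls lay within the range of both conditioned media, and the spread within the arrested and competent groups was wider than any difference between group means. The differences were -0.20 ± 0.24 for arrested minus competent, -0.13 ± 0.24 for arrested minus control and 0.06 ± 0.24 for competent minus control (limma adjusted p = 0.82, 0.97 and 1). RNA level says nothing of STAT3 phosphorylation, which was not measured.

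The 14 annotated Stat3 transcripts include 3 with a value. Stat3-001 carried all of it in 7 libraries. In competent libraries 2 and 3 it was listed at 0, and the level was divided between Stat3-010, at 20.04 and 33.8 FPKM, and Stat3-011, at 30.2 and 45.0 FPKM. Stat3-010 and Stat3-011 are 2927 and 2506 bases long, against 4516 for Stat3-001, and FPKM is scaled to the length of each transcript, so the sum can move with this division. From coverage per gene length the difference was 0.26 for arrested minus competent, and from the transcript of highest mean FPKM alone it was 3.80.

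Socs3 (ENSMUSG00000053113, chr11:117827393-117831361, minus strand) encodes the inhibitor that binds gp130 and JAK kinases, and its mRNA is a common readout of STAT3 activity. It had 2.97, 6.27 and 3.21 FPKM in the arrested libraries, 4.12, 2.82 and 4.81 in the competent libraries, and 4.48, 3.08 and 4.45 in the control libraries. The groups overlapped, with arrested library 2 the highest and the other arrested libraries among the 4 lowest. The group means were 4.15 ± 1.84, 3.92 ± 1.01 and 4.005 ± 0.797 FPKM in the arrested, competent and control groups (SD, n = 3 each). The differences were 0.03 ± 0.30 for arrested minus competent, -0.0025 ± 0.30 for arrested minus control and -0.03 ± 0.30 for competent minus control (limma adjusted p = 0.99, 1 and 1).

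The 250 bases before the RefSeq start of Socs3, chr11:117830681-117830930 on the minus strand, are shown because Socs3 is the textbook STAT3 target among the 7 genes. They hold the only match to the STAT pattern TTCNNNGAA, searched on both strands, in the upstream windows of the 7 genes. It begins 154 bases before the start and is in capitals with a GC box (GGGCGG).

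Socs3 upstream window: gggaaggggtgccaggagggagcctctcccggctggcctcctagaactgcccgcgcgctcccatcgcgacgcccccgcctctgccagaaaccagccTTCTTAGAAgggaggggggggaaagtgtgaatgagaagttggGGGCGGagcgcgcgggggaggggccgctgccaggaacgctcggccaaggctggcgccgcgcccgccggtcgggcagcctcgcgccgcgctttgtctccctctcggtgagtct

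Of 32851 upstream windows of this length, 7.02% hold that pattern. The windows of the other 6 genes do not hold these letters, which says nothing of whether STAT3 binds elsewhere at them.

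Coch (ENSMUSG00000020953, chr12:52694361-52706760, plus strand) encodes cochlin, a secreted protein of the extracellular matrix that is best known from the inner ear. It had 8.94, 8.83 and 30.04 FPKM in the arrested libraries, 1.09, 0.275 and 0.399 in the competent libraries, and 4.01, 1.60 and 2.17 in the control libraries. Every arrested library was above every control library, and every control library above every competent library. Of 13333 genes tested, 34 separated the 3 groups in this order (0.255%), an order that was looked for after the values were seen. The ratio of group means was 27.1 for arrested over competent, 6.14 for arrested over control and 0.227 for competent over control. Without arrested library 3 the first pair were 15.1 and 3.42. With assembled transcripts added and all libraries kept, the ratios were 29.2, 3.50 and 0.12 in the same order. All of the annotated level came from Coch-201. Its values in competent libraries 2 and 3 rest on coverage of 0.495 and 0.585 reads deep, so the ratios over the competent mean have a divisor near the floor.

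The arrested minus competent difference was 3.22 ± 0.49, with an unadjusted limma p of 0.00017 and an adjusted p of 0.098, so Coch was not called in that reading. With assembled Coch transcripts added it had 8.94, 12.6 and 30.04 FPKM in the arrested libraries, 1.09, 0.275 and 0.399 in the competent libraries, and 5.26, 3.66 and 5.81 in the control libraries. The order of the groups was the same, and the difference of 3.38 ± 0.41 passed the threshold (limma adjusted p = 0.036). The additions in the control libraries are pieces of 4 to 6 of the gene's exons, each counted in full although it covers part of the gene. The call in the annotated reading was also made when genes with failed estimates were left out (limma adjusted p = 0.042), a filter that uses the group labels.

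The direction of the Coch difference did not rest on arrested library 3 alone. Without that library, arrested minus competent was 2.67 from annotated transcripts, which was not called (limma adjusted p = 0.051). With assembled transcripts it was 2.90 (limma adjusted p = 0.016), in a reading chosen after the values were seen. The other comparisons of Coch did not pass. Arrested minus control was 2.06 ± 0.49 from annotated transcripts and 1.47 ± 0.41 with assembled ones (limma adjusted p = 0.79 and 0.78). Competent minus control was -1.16 ± 0.49 and -1.91 ± 0.41 in the same order of readings (limma adjusted p = 0.95 and 0.62).

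The 250 bases before the RefSeq start of Coch, chr12:52694078-52694327 on the plus strand, are shown because Coch is the gene whose level separated the groups. Capitals mark 3 GC boxes, GGGCGG on either strand. The window holds no TATA box (TATAAA), and neither CCAAT nor the STAT pattern was found in it.

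Coch upstream window: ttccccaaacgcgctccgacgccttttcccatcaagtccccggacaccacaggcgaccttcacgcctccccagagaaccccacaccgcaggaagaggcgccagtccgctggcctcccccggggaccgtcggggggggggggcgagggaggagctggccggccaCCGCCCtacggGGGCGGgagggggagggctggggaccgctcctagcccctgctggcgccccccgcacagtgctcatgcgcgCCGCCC

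Irg1 (ENSMUSG00000022126, chr14:103446194-103455790, plus strand; now Acod1) encodes the enzyme that makes itaconate in activated macrophages, and in mouse uterus it has been described as progesterone-responsive around implantation. It had 0.161, 0.181 and 4.82 FPKM in the arrested libraries, 0.063, 0.092 and 0.028 in the competent libraries, and 0.455, 0.193 and 0.091 in the control libraries. Arrested library 3 was 10.6 times the next highest library, and the authors' confidence interval for it ran from 4.10 to 5.54 FPKM. The other arrested libraries were within the range of the controls and above the competent libraries, all at levels near the floor of the measurement. Arrested and competent libraries did not overlap. Of genes that reached the minimum for the test, which Irg1 did not, 16.5% had no overlap between these groups. The mean of Irg1 over 9 libraries was 0.676 FPKM, under the minimum of 1 FPKM, so it has no p in the main reading. The fold between group means rests on 1 library. The upstream window of Irg1 holds TATAAA at 28 bases before the RefSeq start, as 12.4% of such windows do at some position.

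Across the 3 comparisons, 5 of the 7 genes reached the expression minimum. Of these, 0 were called for arrested versus competent, where 18 of 13333 genes were called (0.135%), 8 higher and 10 lower in the arrested group. Likewise 0 of 5 were called for arrested versus control, where 0.045% of genes were, and 0 of 5 for competent versus control, where 0.0375% were. Of the 5, arrested and competent libraries did not overlap for 1, Coch (16.5% of genes tested). Arrested and control libraries did not overlap for 1, Coch (8.84%), and competent and control libraries for 1, Coch (14.8%). Irg1, under the minimum, also had no overlap between arrested and competent libraries, and no share was counted for genes as low as it. At an unadjusted limma p under 0.05 stood 1 of the 5 in each comparison, Coch, against 10.9, 5.26 and 5.17% of all genes in the order just given. With assembled transcripts added, 6 genes were tested, and 1, Coch, was called for arrested versus competent (0.133% of 14254 genes) and 0 for arrested versus control and competent versus control (0.0491 and 0.014% of genes). The unadjusted p was then under 0.05 for 2 of the 6, Lif and Coch, in arrested versus competent, against 12.5% of genes.

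**Figure D3:**
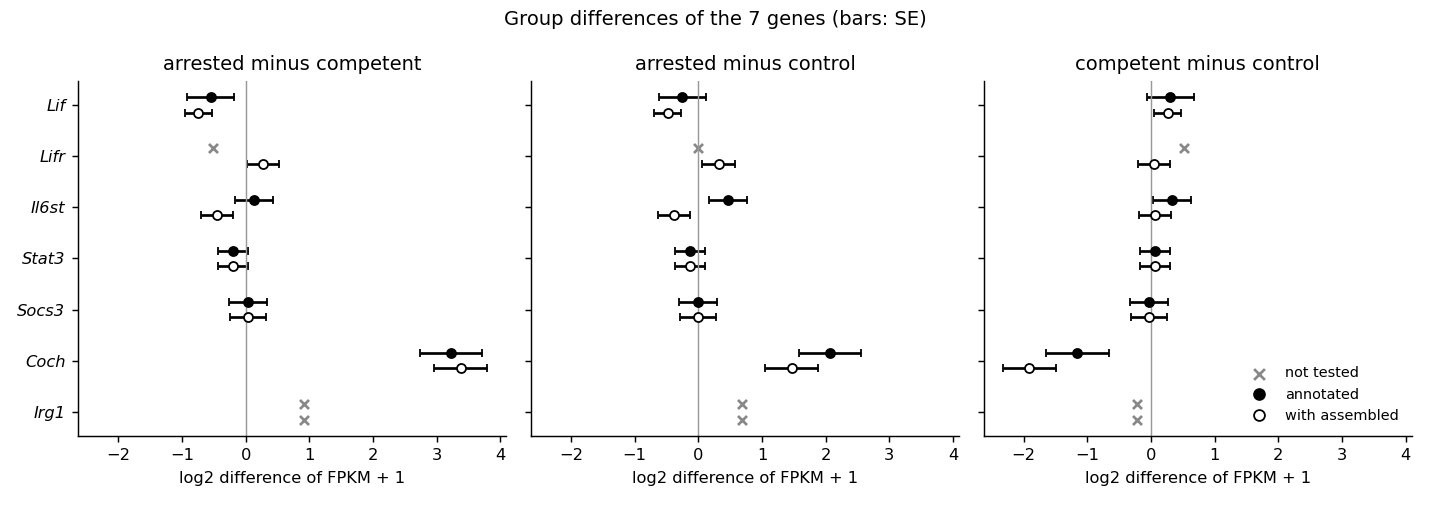
Differences of group means on the log2(FPKM + 1) scale (horizontal axes, bars are standard errors of the limma fit) for the 7 genes in the 3 comparisons. Filled points use annotated transcripts, open points add assembled ones, and crosses mark genes under the expression minimum, which have no test. Coch lies far from 0 in arrested minus competent, at 3.22 and 3.38, and Il6st changes side with the transcripts counted.

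The wider pathway was read from 74 genes in 8 lists, of which 52 reached the expression minimum. In each comparison 0 of the 52 were called, and the smallest limma adjusted p was 0.27 for arrested versus competent, 0.90 for arrested versus control and 0.89 for competent versus control. For arrested versus competent, 24 had a positive and 28 a negative difference. The unadjusted limma p was under 0.05 for 7 of them, 5 higher and 2 lower in the arrested group, or 13.5% against 10.9% of all genes. Levels are described below by role.

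Among the other ligands of the family, most were hardly detected. Il6, Il11 and Osm stayed at or below 0.540 FPKM in every library, and Ctf2, Cntf, Il27 and Ebi3 were listed at 0 in all 9. Clcf1, a cytokine that acts through the CNTF receptor and gp130, was the most abundant, at 5.71, 0 and 12.9 FPKM in the arrested libraries, 7.76, 11.3 and 8.64 in the competent libraries, and 12.6, 1.83 and 8.12 in the control libraries. Cardiotrophin-1 (Ctf1) lay between 3.03 and 6.67 FPKM. Of the 10 ligands 3 were tested, 1 with a positive and 2 with a negative arrested minus competent difference, with a median of -0.40 against -0.01 over all genes. In arrested library 2, Clcf1 was listed at 0.

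Among the receptors that pair with gp130, Il11ra1, the interleukin-11 receptor chain needed in mouse decidua, had 29.8, 46.8 and 57.3 FPKM in the arrested libraries, 56.6, 76.8 and 54.5 in the competent libraries, and 33.4, 65.5 and 99.0 in the control libraries. Osmr, the oncostatin M receptor, lay between 3.43 and 7.74 FPKM. Both were measured with overlapping groups. Il6ra, Cntfr and Il27ra were under the expression minimum.

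JAK1 is the main kinase of gp130, and Jak1 was even across libraries, at 30.3 to 36.6 FPKM. Jak2 ranged from 17.7 to 55.7 FPKM from annotated transcripts, but from 66.9 to 84.99 with assembled ones. Tyk2 was listed at 0 in all 9 libraries from annotated transcripts and at 9.27 to 14.01 FPKM with assembled ones, as for Lifr. Stat6, which serves interleukin-4 and interleukin-13, was the most abundant other STAT, at 23.1 to 46.7 FPKM. Jak3, a kinase of lymphocyte cytokine receptors, had 7.43, 9.62 and 2.30 FPKM in the arrested libraries, 12.4, 13.8 and 13.5 in the competent libraries, and 11.3, 11.96 and 13.4 in the control libraries. All arrested libraries were below all others, an order shown by 321 of 13333 genes tested (2.41%). The arrested minus competent difference was -1.09 ± 0.39 (limma adjusted p = 0.40), and -0.59 without arrested library 3 (limma adjusted p = 0.23). Of 8 tested genes in this list 5 had a negative difference, with a median of -0.37 against -0.01 over all genes. With assembled transcripts 5 of 9 were negative, and the median was -0.01. For arrested minus control in that reading 9 of 9 were negative, with a median of -0.24 against -0.02 over all genes. Of these 9, 0 were called. Stat5b, which carries growth hormone and prolactin signals, lay between 5.93 and 13.4 FPKM with overlapping groups.

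The brakes on JAK-STAT signalling numbered 14, of which 12 were tested, 5 with a positive and 7 with a negative arrested minus competent difference and a median of -0.07. The phosphatase gene Ptpn11, whose product SHP2 docks on gp130, lay between 19.9 and 25.1 FPKM, and Ptpn2, whose product removes phosphate from STATs, between 14.4 and 23.2. Cish, a SOCS family gene induced by STAT5, had 5.54, 5.25 and 4.52 FPKM in the arrested libraries, 8.96, 7.35 and 9.09 in the competent libraries, and 14.7, 16.9 and 4.802 in the control libraries. Arrested and competent libraries did not overlap, as for 16.5% of genes tested, while the controls overlapped with both. Socs1, a close relative of Socs3, had 1.14, 1.81 and 1.98 FPKM in the arrested libraries, 3.17, 3.46 and 2.07 in the competent libraries, and 0, 1.58 and 1.31 in the control libraries. Neither passed the test in any comparison.

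All 17 general STAT3 targets were tested, with 6 positive and 11 negative arrested minus competent differences and a median of -0.01. Mcl1, a survival gene of the BCL2 family, and Junb, an AP-1 subunit, were the most abundant, at 29.0 to 68.5 and 33.7 to 48.1 FPKM. Cebpd, an acute-phase transcription factor, had 21.4, 26.02 and 46.3 FPKM in the arrested libraries, 18.4, 2.46 and 15.3 in the competent libraries, and 29.5, 21.1 and 17.9 in the control libraries. The arrested libraries were above the competent ones, and these groups did not overlap for 16.5% of genes tested. The difference was 1.57 ± 0.63 (limma adjusted p = 0.42). The low value of competent library 2 was 17.1 FPKM once assembled transcripts were added, and the difference was then 0.77 (limma adjusted p = 0.34). From annotated transcripts and with competent library 2 left out, Cebpd differed by 0.78 (limma adjusted p = 0.70). Lrg1, a secreted glycoprotein induced by STAT3, had 3.02, 9.47 and 5.70 FPKM in the arrested libraries, 7.20, 18.8 and 14.4 in the competent libraries, and 6.91, 6.79 and 2.24 in the control libraries, with overlap between arrested and competent.

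Other uterine genes downstream of LIF were 6, of which 4 were tested, all with a positive arrested minus competent difference and a median of 0.76 against -0.01 over all genes. Igfbp3, which binds insulin-like growth factors, had 39.7, 63.5 and 138 FPKM in the arrested libraries, 26.9, 20.6 and 25.96 in the competent libraries, and 30.8, 25.6 and 31.9 in the control libraries. Each arrested library was above all others, and the difference was 1.498 ± 0.391 (limma adjusted p = 0.28). Ptgs2, the inducible cyclooxygenase of decidualization, had 1.27, 2.33 and 5.47 FPKM in the arrested libraries, 0.708, 0.550 and 0.677 in the competent libraries, and 0.581, 0.542 and 0.538 in the control libraries. It too was higher in each arrested library than in all others, and differed by 1.15 ± 0.39 (limma adjusted p = 0.39). Without arrested library 3 Ptgs2 averaged 0.900 FPKM over the other 8 libraries, under the minimum, and had no test. Of 13333 genes tested, 220 stood in this order (1.65%). Msx1, a homeobox gene that LIF lowers at implantation, ranged from 85.01 to 167 FPKM with overlapping groups, and the epidermal growth factor family genes Areg and Ereg were listed at 0 in all 9 libraries.

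Of 9 progesterone-responsive genes 6 were tested, 4 with a positive and 2 with a negative arrested minus competent difference. Cyp26a1, which breaks down retinoic acid, had 12.7, 5.06 and 299 FPKM in the arrested libraries, 3.73, 1.61 and 1.97 in the competent libraries, and 2.59, 1.93 and 6.14 in the control libraries. The difference of 3.14 ± 1.26 (limma adjusted p = 0.42) came with 23.5 times the next highest library in arrested library 3, and was 1.46 without it (limma adjusted p = 0.32). Ihh, the epithelial hedgehog ligand induced by progesterone, had 1.45, 1.41 and 5.09 FPKM in the arrested libraries, 1.09, 0.547 and 0.459 in the competent libraries, and 1.27, 0.760 and 1.18 in the control libraries. Each arrested library was above all others, as for 1.65% of genes tested, though arrested libraries 1 and 2 only by a small margin. Ihh differed by 0.98 ± 0.41 (limma adjusted p = 0.45), and by 0.53 without arrested library 3 (limma adjusted p = 0.53). Gata2, a transcription factor that drives the progesterone receptor gene, went the other way, with 33.0, 41.6 and 26.4 FPKM in the arrested libraries, 56.8, 53.3 and 50.1 in the competent libraries, and 43.1, 51.8 and 45.0 in the control libraries. All arrested libraries were below all others, as for 2.41% of genes tested, and the difference was -0.67 ± 0.17 (limma adjusted p = 0.27). Hoxa10, a homeobox gene of stroma, had overlapping groups between 29.8 and 79.5 FPKM. The receptor gene Pgr itself was listed at 0 in 6 libraries from annotated transcripts, the 3 arrested ones included, and at 26.5 to 48.5 FPKM with assembled ones, so its zeros carry no group difference.

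**Figure D4:**
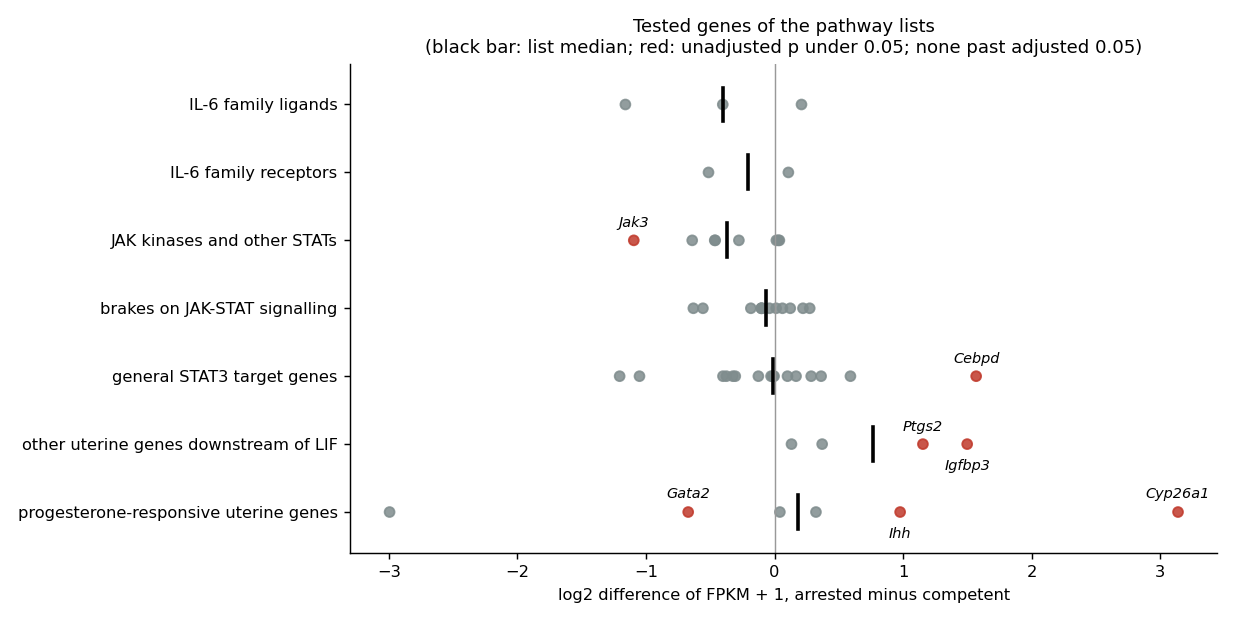
Arrested minus competent differences on the log2(FPKM + 1) scale (horizontal axis) of the 52 tested genes of the pathway lists, with a black bar at each list's median; the list of macrophage activation genes had 0 tested genes. Named red points have an unadjusted limma p under 0.05, and 0 genes pass the adjusted threshold. The unnamed point near -3 is Pgr, whose zeros in the annotated reading go away with assembled transcripts.

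Because Irg1 is known from activated macrophages, macrophage genes were set beside it. The cytokine genes Il1b and Tnf and the nitric oxide synthase gene Nos2 summed to 0.799, 1.29 and 1.39 FPKM in the arrested libraries, 0.186, 0.359 and 0.699 in the competent libraries, and 0.554, 0.123 and 0.416 in the control libraries. All arrested libraries were above all others in this sum, by 2.80 times the competent and 3.19 times the control mean, with arrested library 3 the highest. None of the 3 genes reached the expression minimum, so there was no test, and these folds are between levels near the floor of the measurement. Of single genes tested, 1.65% had all arrested libraries above all others. The 8 macrophage markers summed to 118 FPKM in arrested library 3, the lowest of the 9 libraries, against 162 to 343 in the other 8, and none of the 8 was listed at 0. The 5 neutrophil markers summed to 3.66 FPKM there, also the lowest.

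Some markers of uterine glands were high in arrested library 3, as were Irg1 and Coch. The 6 gland markers summed to 3.65, 2.97 and 246 FPKM in the arrested libraries, 6.74, 17.4 and 25.6 in the competent libraries, and 4.60, 3.56 and 22.1 in the control libraries. Spink3, Prss28 and Prss29, secreted proteins of glands, made up the sum of arrested library 3, at 112, 21.8 and 110 FPKM, where the other 8 libraries reached at most 8.86, 1.05 and 15.3. The gland transcription factor Foxa2 was at 1.31 FPKM in arrested library 3 and within the range of the other libraries (0 to 2.39), Cxcl15 was at 0.201, the lowest, and Ttr was listed at 0 in all 9. Of 13333 genes tested, 106 were in arrested library 3 over 3 times every other library (0.795%), and Coch, at 3.36 times, was among them. In arrested libraries 1 and 2 Coch was at 8.94 and 8.83 FPKM, and the gland markers there summed to 3.65 and 2.97 FPKM. The part of gland content in the levels of Coch, Irg1 and Cyp26a1 was not tested.

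Adipocyte markers were by far the highest in arrested library 2: the 7 markers summed to 1302 FPKM there and to 1.42 to 163 in the other 8. They also varied within each group, with 1.55 and 140 FPKM in arrested libraries 1 and 3. The competent libraries ran from 1.42 to 163 and the control libraries from 3.81 to 109. Arrested library 2 also had the highest Il6st and Socs3. Without it, arrested minus competent was -0.18 for Il6st from the annotated transcript and -0.25 for Socs3, and neither passed the test with or without it. Globin and other blood genes were higher in all arrested libraries than in all control libraries, at 3618, 4842 and 2091 FPKM in the arrested libraries and 937, 989 and 1500 in the control libraries, with 3966, 2477 and 747 in the competent libraries. Of single genes tested, 8.84% had arrested and control libraries that did not overlap. The part of blood content in the arrested minus control differences was not tested.

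**Figure D5:**
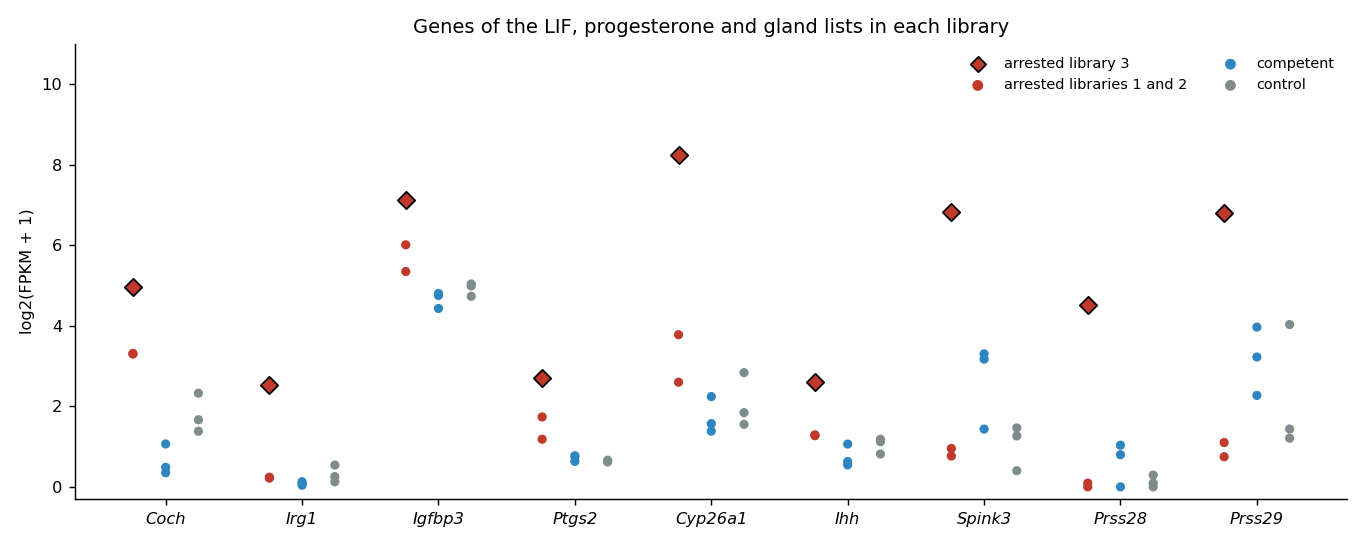
Levels on a log2(FPKM + 1) axis of genes of the members, the LIF and progesterone lists and the gland list in each library, with arrested library 3 as a diamond. For Coch, Igfbp3, Ptgs2 and, by a small margin, Ihh the other arrested libraries are also above the competent and control ones. Their 2 Coch points, 8.94 and 8.83 FPKM, lie on each other. For Irg1, Spink3, Prss28 and Prss29 the other arrested libraries are not above the competent and control ones.

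The 7 genes did not move as one across the 9 libraries. Coch and Irg1 had the highest pairwise correlation (Pearson r = 0.76), Lif ran opposite to Coch (r = -0.63) and Irg1 (r = -0.59), and Stat3 and Socs3, factor and target, stood at r = 0.29. These are descriptions over 9 libraries in 3 groups that share arrested library 3, with no test. The genes most like each member were sought among 9066 protein-coding genes with no zero. Coch was most like Ggt6 (r = 0.97), a gamma-glutamyltransferase, and Wnt11 (r = 0.96), a Wnt ligand, and without arrested library 3 these were at 0.95 and 0.94.

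Wnt11 had 35.5, 30.6 and 82.5 FPKM in the arrested libraries, 6.68, 1.60 and 3.46 in the competent libraries, and 16.1, 15.7 and 8.04 in the control libraries, and thus stood in the same order of groups as Coch without overlap. Ggt6 had 4.25, 4.76 and 12.6 FPKM in the arrested libraries, 1.91, 0.865 and 1.16 in the competent libraries, and 4.51, 1.96 and 1.89 in the control libraries, where arrested and control overlapped. Irg1 was most like Epha1 (r = 0.99) and Dram1 (r = 0.98), but at 0.55 and 0.59 without arrested library 3. Lif was most like Lrrc1 and Atf7ip (both r = 0.94), Il6st like Kpna3 (0.94) and Fgl2 (0.92), Stat3 like R3hdm2 (0.92) and Rnps1 (0.89), and Socs3 like Fam168a (0.95) and Bclaf1 (0.94). Lifr could not be ranked, with 8 libraries at 0.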

How the data were processed

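Whole-uterus RNA was measured in 9 libraries, 3 per group. Upstream steps are known from the submitters' processing notes only: Bowtie 0.12.2, build mm9, and Cufflinks, of which no version is given. The deposited FPKM values are the authors', per transcript. The deposited coverage signal was proportional to FPKM within each library, by a factor of 1.09 to 1.98, and depth in reads is unknown. Transcripts were joined to GENCODE vM1 on NCBIM37, and FPKM were summed per gene over 91479 annotated transcripts. Assembled multi-exon transcripts sharing a splice junction with 1 gene only, in the median library 4.97% of FPKM in genes, were added as an alternative.

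The test was limma 3.58.1 in R 4.3.3 on log2(FPKM + 1), in 1 fit of the 3 groups with a mean trend, for 13333 genes whose 9 libraries averaged 1 FPKM or more. Adjusted p-values are Benjamini-Hochberg over all genes tested, with a threshold of 0.05, and SD is over the 3 libraries of a group. The fit was tested on simulated data with known changes in the arrested group. For arrested versus competent it called 16.75% of changes of size 1 on the log2 scale, 69.75% of size 2 and 84% of size 3. A gene without a call may therefore still differ. Python 3.11.15, pandas 2.3.3, numpy 2.4.6 and matplotlib 3.10.9 were used.

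The 7 genes, the lists and the tests were chosen with earlier results of these data known. Named pathway genes are, per list, the 2 of highest mean FPKM and the 2 of smallest p in arrested versus competent, plus any called; 1 gene that this rule names is not reported here. Others (Il6, Il11, Osm, Jak1, Tyk2, Ihh, Pgr, Stat2, Nos2, genes under the minimum or listed at 0, and single markers) were named after their values were seen. So were the readings that leave out an arrested library with assembled transcripts added or with no filter.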

Additional observations from a re-analysis of the deposited data

How the results depend on the processing

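The absence of calls among the 7 genes held under every alternative tried for arrested versus control and competent versus control. For arrested versus competent 1 gene, Coch, was called with assembled transcripts added, with those and any 1 arrested library left out (an alternative chosen after seeing the data), and with failed estimates left out. Its difference was 2.67 to 4.47 over 22 alternatives, with limma adjusted p from 0.036 to 0.36, and leaving out 1 library in the annotated reading gave 0.051 to 0.36. Pathway genes stayed at 0 calls except for 1, Stat2, in competent versus control when the transcript of highest mean FPKM stood for the gene.

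Small differences changed sign. With assembled transcripts Il6st was at -0.45 against competent and -0.39 against control. Without arrested library 1, 2 or 3 in that reading it was at -0.17, -0.73 and -0.44 against competent, and at -0.11, -0.67 and -0.38 against control. With the transcript of highest mean FPKM only, Stat3 was at 3.80 for arrested minus competent and -3.93 for competent minus control, since 2 competent libraries list that transcript at 0; from coverage it was at 0.26 and -0.42, and the cause was not tested. Socs3 was at 0.022 with median-ratio factors and 0.027 with quantile normalization for arrested minus control.

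Leaving out 1 library gave -0.18 to 0.39 for Il6st, -0.41 to 0.020 for Stat3 and -0.25 to 0.19 for Socs3 in arrested minus competent. It gave -0.44 to 0.030 for Lif, -0.35 to 0.084 for Stat3 and -0.28 to 0.16 for Socs3 in arrested minus control. For competent minus control it gave -0.10 to 0.22 for Stat3 and -0.17 to 0.14 for Socs3. None of these was called.

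Of all genes, leaving out 1 library called 11 to 41 for arrested versus competent, 7 to 24 for arrested versus control and 4 to 15 for competent versus control, in place of 18, 6 and 5. The 41 came without arrested library 2 or 3 and the 11 without competent library 3, the 24 without arrested library 3, and the 15 without competent library 1 or control library 2. The transcript of highest mean FPKM called 11, 3 and 4 in the same comparisons. Fitting the compared groups alone called 33, 9 and 12, no mean trend 10, 6 and 4, assembled transcripts 19, 7 and 2, coverage 22, 5 and 2, and no filter on low values 12, 9 and 8. With the replicate number as a block the counts were 4, 5 and 1, and 0 of the 7 genes were called. No pairing by number was seen: deviations of same-numbered libraries correlated at -0.052 to 0.096 in 9 pairs, 0 of them over 0.1. Such correlations cannot show whether same-numbered samples were handled together. Irg1, Lif and Coch reached the lowest coverage values among the 7 genes, Coch in competent libraries 2 and 3, which limits what can be seen in them.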
